A study of Mus musculus with 2 samples.

Results

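Peaks of NRF1 with several imperfect copies of its palindrome were examined in mouse skeletal muscle. NRF1 (nuclear respiratory factor 1) was mapped by chromatin immunoprecipitation and sequencing (ChIP-seq), in which an antibody recovers the DNA that a protein occupies and occupied sites appear as peaks of reads. The 2 libraries of the series are both labelled with the NRF1 antibody, wild-type genotype and skeletal muscle, so they form 1 group. The study used male mice, the labels name no strain, age or treatment, and whether animals were pooled is not given in the sources used here. Replicate 2 is however given as an input library in the reporting summary, against its label. That summary also names signal tracks, which were not used. The processed data used here are 1 list of 3226 peaks, and its peaks are named after replicate 1. The number of peaks in it is not the number counted in the study's text, and 7 of them have a q-value above 0.01, the limit named in the methods, so the list is not that peak set as described. No value below therefore has a replicate error, and depth is unknown from the list. A peak list holds no expression, so the labelled tissue could not be checked against its markers.

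The summit of a peak is the base with the highest signal. The palindrome GCGCATGCGC was searched within 100 bp of every summit, and a copy counted as exact at 0 mismatches and as imperfect at 1 mismatch. Peaks were kept when they held at least 2 imperfect copies at different positions and no exact copy, and 283 of the 3226 peaks, or 8.77%, met this rule. Of the other peaks, 1460 held 1 imperfect copy, 349 held an exact copy and 1134 held neither. The rule used sequence and summit position only, and fold enrichment, width and genes were not used.

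NRF1 binds DNA as a dimer, and each subunit contacts 1 arm of the GC-rich palindrome. Many of its known targets are housekeeping genes with CpG island promoters, and it is best known for nuclear genes of the mitochondrial respiratory chain and of mitochondrial transcription. Its binding is hindered by CpG methylation of the site.

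An imperfect copy has 1 intact arm of 5 bases and 1 altered arm. Because the palindrome equals its own reverse complement, each copy was read on the strand that puts the altered arm second, and positions are counted from 1 at the 5′ end on that strand. T6G then means that the palindrome has T at position 6 and the copy has G. The 4 kinds shown next were the commonest in these peaks, in this order.

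T6G copy: GCGCAGGCGC
T6C copy: GCGCACGCGC
C10T copy: GCGCATGCGT
T6A copy: GCGCAAGCGC

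The spans shown next run from the first to the last copy of a peak with 5 flanking bases on either side, on the plus strand of mm10 (GRCm38), read from the RefSeq genome, with copies in capitals. They were taken from the named peaks whose copies lie outside annotated exons and show the arrangements that occurred. The first group holds promoters with separate copies and high fold enrichment, in the same direction (Crtc1, Rab3gap2) or in opposite directions (Gtf3a, Odc1, Zc3h14).

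Crtc1 (chr8:70439623-70439678): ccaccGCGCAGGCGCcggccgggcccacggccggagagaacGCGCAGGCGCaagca
Rab3gap2 (chr1:185204040-185204085): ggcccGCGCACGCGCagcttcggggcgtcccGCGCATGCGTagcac
Gtf3a (chr5:146948572-146948623): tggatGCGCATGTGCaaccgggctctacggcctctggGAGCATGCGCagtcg
Odc1 (chr12:17544610-17544706): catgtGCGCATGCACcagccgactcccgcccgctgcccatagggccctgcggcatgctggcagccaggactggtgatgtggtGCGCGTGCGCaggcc
Zc3h14 (chr12:98746897-98746936): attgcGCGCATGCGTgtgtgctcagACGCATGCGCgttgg

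The second group shows overlapping copies, as a pair in the Hexim1 promoter, as a run of 4 in the promoter shared by Erp29 and Tmem116, and as 2 overlapping pairs in an intron of Nol4l.

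Hexim1 (chr11:103116163-103116188): ccgttACGCATGCGCATGGGCggggc
Erp29 and Tmem116 (chr5:121452534-121452631): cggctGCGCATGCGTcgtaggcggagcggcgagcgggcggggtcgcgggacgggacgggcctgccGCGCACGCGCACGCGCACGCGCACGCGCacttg
Nol4l (chr2:153492655-153492725): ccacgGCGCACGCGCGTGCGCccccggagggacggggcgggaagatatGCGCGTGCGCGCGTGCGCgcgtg

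The third group lies outside promoters, with high fold enrichment (Peg10, Slx4, Ptma) or low fold enrichment (Dyrk1b), each named after the nearest transcription start.

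Peg10 (chr6:4749358-4749427): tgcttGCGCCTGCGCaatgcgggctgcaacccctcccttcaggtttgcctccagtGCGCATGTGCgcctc
Slx4 (chr16:4003774-4003850): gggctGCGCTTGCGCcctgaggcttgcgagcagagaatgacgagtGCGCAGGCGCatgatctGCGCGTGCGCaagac
Ptma (chr1:86487630-86487683): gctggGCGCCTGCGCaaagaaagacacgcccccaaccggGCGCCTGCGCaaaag
Dyrk1b (chr7:28209044-28209088): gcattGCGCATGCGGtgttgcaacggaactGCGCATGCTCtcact

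Peaks with several imperfect copies had the highest median fold enrichment of the 4 classes, though below that of the exact-copy peaks with a further copy. Fold enrichment is the ratio, given by the authors, of the signal at the summit to the control background. Its median was 16.8 in the 283 peaks, with quartiles of 12.4 and 21.6 and extremes of 4.81 and 44.3. The median was 11.1 with 1 imperfect copy, 14.3 with an exact copy and 8.26 without a copy. On the log2 scale the several-copy peaks were 0.51 higher than peaks with 1 imperfect copy (95% interval 0.42 to 0.59), a ratio of 1.42. In a linear model across all 3226 peaks, with p-values adjusted by the Benjamini-Hochberg method over 12 tests, the adjusted p was 1.36e-32. The p-values here measure the spread between peaks of 1 list, not between animals.

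Against peaks with an exact copy the difference was 0.23 on the log2 scale (0.13 to 0.34, adjusted p = 1.43e-05, n = 3226 peaks). That class was mixed, and its direction depended on further copies. In the 255 peaks with an exact copy alone the median fold enrichment was 12.5 (quartiles 8.96 and 16), and the members were 0.40 higher (0.29 to 0.50, adjusted p = 8.84e-13, n = 3132 peaks). In the 94 peaks with an exact copy and at least 1 other copy, exact or imperfect, it was 18.4 (quartiles 14.4 and 25.7), and the members were lower, at a difference of -0.21 (-0.35 to -0.07, adjusted p = 0.00489, n = 2971 peaks). This split was chosen after seeing the data. Against the whole exact class the difference was 0.29 among promoter peaks (0.18 to 0.40) and -0.02 outside promoters (-0.29 to 0.24). The difference between these 2 values was 0.31 (0.02 to 0.60, adjusted p = 0.0396 over 7 tests chosen after seeing the data, n = 632 peaks). Against peaks without a copy it was 0.92 (0.83 to 1.01, adjusted p = 3.18e-95, n = 3226 peaks). Of the 323 peaks in the top 10% of fold enrichment, 83 were several-copy peaks, which is 29.3% of this class. The corresponding share was 9.25% of peaks with 1 imperfect copy, 18.6% of peaks with an exact copy and 3.53% of peaks without a copy.

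The difference from peaks with 1 imperfect copy was of similar size inside and outside promoters. It was 0.51 among promoter peaks and 0.50 among the other peaks. With the kind of mismatch nearest the summit as a covariate it was 0.51. Peak width moved with it: with log2 width as a covariate, chosen after seeing the data, the difference was 0.23 (0.15 to 0.30, adjusted p = 1.97e-08, n = 3226 peaks). The methods give a read extension of 150 bp, but for a broad call that does not match this list, and 67 of its peaks have the smallest width of 136 bp, so the extension used for it is not known. Whether neighbouring copies add to the signal at 1 summit was not tested.

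**Figure D1:**
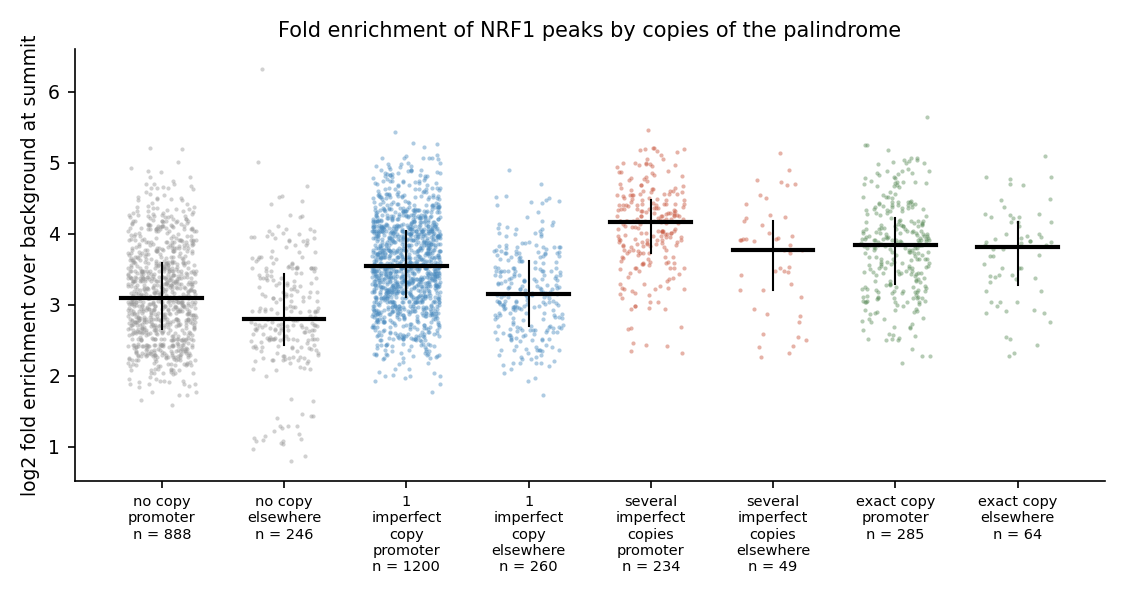
log2 fold enrichment of every peak (1 point each) by class of palindrome copies, in promoters and elsewhere; thick bars are medians and thin lines run from the lower to the upper quartile. Promoter peaks with several imperfect copies have the highest median, 18 as a fold, against 11.7 with 1 imperfect copy and 14.3 with an exact copy.

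Several-copy peaks were also wider than each of the other classes taken whole. Their median width was 426 bp (quartiles 339 and 518 bp), compared with 296 bp with 1 imperfect copy, 350 bp with an exact copy and 239 bp without a copy. The log2 difference in width was 0.45 from peaks with 1 imperfect copy (0.38 to 0.51, adjusted p = 4.22e-42), 0.21 from peaks with an exact copy (0.14 to 0.29, adjusted p = 1.83e-07) and 0.71 from peaks without a copy (0.65 to 0.78, adjusted p = 2.65e-94, n = 3226 peaks). With log2 fold enrichment as a covariate these differences were 0.24, 0.12 and 0.34, so part of the width went with the height of the peak. The members were 0.35 wider than peaks with an exact copy alone (0.27 to 0.43) and narrower than those with an exact copy and another copy, at -0.16 (-0.26 to -0.05, adjusted p = 0.00652, n = 2971 peaks).

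Values just inside and just outside the window were of similar size. In 75 members the second nearest copy ended 71 to 100 bp from the summit, and their median fold enrichment was 17.6. In 19 peaks counted as having 1 imperfect copy, a further copy ended beyond 100 and up to 130 bp from the summit, and their median was 19.0.

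The number of copies ranged from 2 to 6. The 609 copies fell as 2 copies in 248 peaks, 3 copies in 30 and 4 or more in 5. Median fold enrichment was 16.4 with 2 copies, 17 with 3 and 20.4 with 4 or more. Peaks with 3 or more copies were 0.13 higher than those with 2 on the log2 scale, with an interval from -0.05 to 0.32 (adjusted p = 0.195, n = 283 peaks). With copies searched within 150 bp of the summit this difference was 0.26 (0.10 to 0.42, adjusted p = 0.00212, n = 313 peaks). The relation of fold enrichment to copy number beyond 2 thus depended on the window.

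The peaks with the most copies differed in their arrangement. The promoter shared by B3galt6, a galactosyltransferase of glycosaminoglycan synthesis, and Sdf4, which encodes a calcium-binding protein of the Golgi, held 6 T6G copies. All of them pointed the same way, and their starts were 32, 32, 43, 27 and 27 bp apart. Its fold enrichment was 22.2, and it was the widest member at 1126 bp. The shared promoter of Erp29, a chaperone of the endoplasmic reticulum, and Tmem116 held 5 copies at a fold enrichment of 20.4. Of these, 4 T6C copies were packed 6 bp apart, as shown in its sequence.

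The other 3 of these peaks lay outside promoters and had 4 copies each. In an exon that is not coding or is untranslated, near the start of 4930526I15Rik, the copies were separate and the fold enrichment was 25.9. Near the start of Acaa1a, which encodes a peroxisomal thiolase, 4 T6G copies lay 12, 6 and 6 bp apart, and the fold enrichment was 15.2. In the Nol4l intron it was 11.

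Spacing fell into a sharp overlapping class and a broad separate class. Of 326 pairs of neighbouring copies, 47 started 6 bp apart, 5 started 8 bp apart and the other 274 did not overlap. A pair that starts 6 bp apart shares 4 bases, GCGC, and a pair that starts 8 bp apart shares 2. The sequence allows few overlaps: when each copy may differ from the palindrome at 1 base, starts 6, 8 or 9 bp apart are possible, and starts 1 to 5 or 7 bp apart are not. The absence of those distances therefore follows from the rule. Starts 9 bp apart would be possible and did not occur.

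Separate pairs had a median distance between starts of 52.0 bp (quartiles 34.0 and 79.0 bp) and ranged from 10 to 168 bp. Only 6 pairs started 10 to 16 bp apart and 22 started 17 to 20 bp apart. Among pairs of clustered copies elsewhere in the genome without a summit, which are described further on, 106 of 1211 pairs started 10 to 16 bp apart and 44 started 17 to 20 bp apart. Most of those lay in repeats: outside soft-masked repeats the counts were 24 and 20 of 408 pairs, and in promoters 2 and 2 of 41. No pair of the members started 13, 14, 15 or 16 bp apart. As counts of single distances are low, these are descriptions with no test. Distances of 51 to 100 bp accounted for 32.8% of all member pairs (107 of 326, 95% Wilson interval 28.0% to 38.1%). Distances above 100 bp accounted for 11.3%, and here the window sets the limit.

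**Figure D2:**
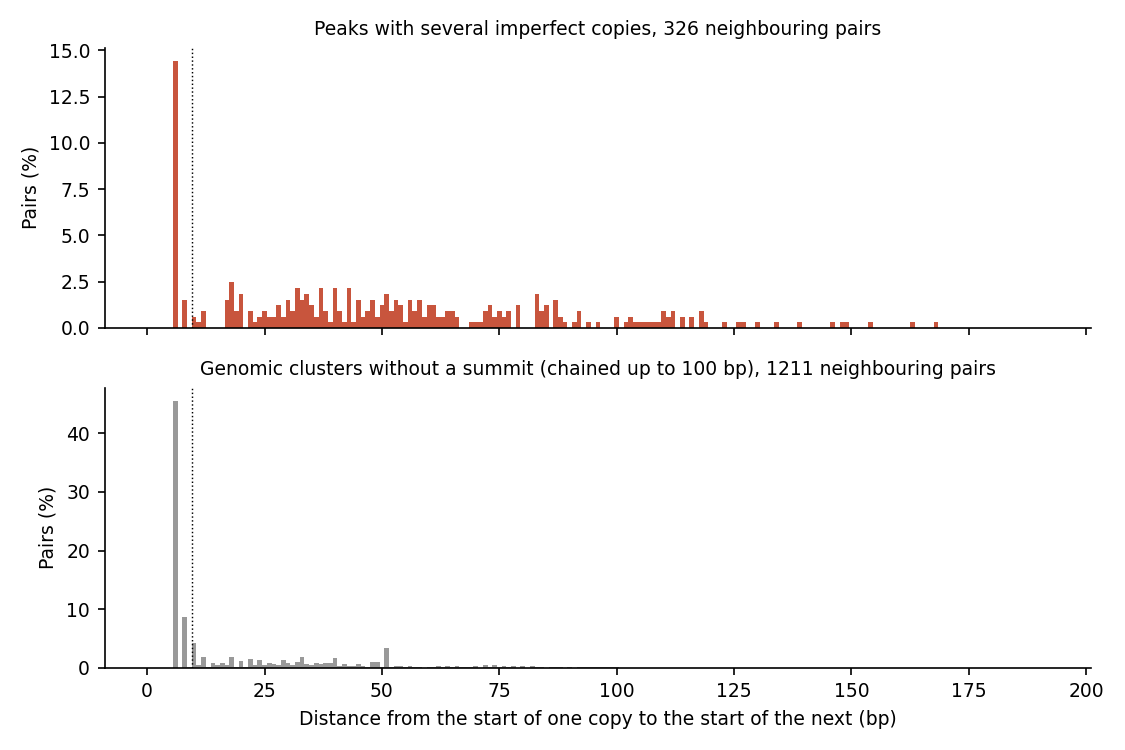
Share of neighbouring pairs by the distance in bp between the starts of the copies, in peaks with several imperfect copies (top, 326 pairs) and in genomic clusters without a summit (bottom, 1211 pairs, chained up to 100 bp); the dotted line separates overlapping from separate copies. Pairs 6 bp apart make up 14.4% in the peaks and 45.5% in the clusters without a summit (27.2% of those outside repeats and 31.7% of those in promoters), and the vertical axes differ.

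Members whose copies overlapped had lower fold enrichment. Overlapping copies occurred in 47 members, with a median fold enrichment of 13.3, and the 236 members without them had a median of 17.7. The log2 difference was -0.42 (-0.65 to -0.20, adjusted p = 2.94e-04, n = 283 peaks), and it was -0.41 with promoter location, GC content and CpG ratio as covariates. In 35 members the only copies were 1 overlapping pair. Their median fold enrichment was 11.5 (quartiles 7.78 and 18.5), beside 11.1 in peaks with 1 imperfect copy. The log2 difference between these was 0.02, with an interval from -0.24 to 0.28 (adjusted p = 0.864 over 7 tests chosen after seeing the data, n = 1495 peaks). This interval does not show that they were equal, but it lies below the 0.58 found for the other 248 members against peaks with 1 imperfect copy. In those 248 the first and last copies did not overlap each other, though neighbouring copies could.

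Among separate copies, fold enrichment varied little with distance. Its median was 17.1 in the 47 members whose closest pair started 10 to 30 bp apart. It was 16.9 in 98 members at 31 to 60 bp, 17.7 in 60 members at 61 to 100 bp and 19.3 in 31 members above 100 bp. The quartiles of these groups overlapped widely, from 12.7 to 14.8 for the lower and from 21.4 to 23.8 for the upper.

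**Figure D3:**
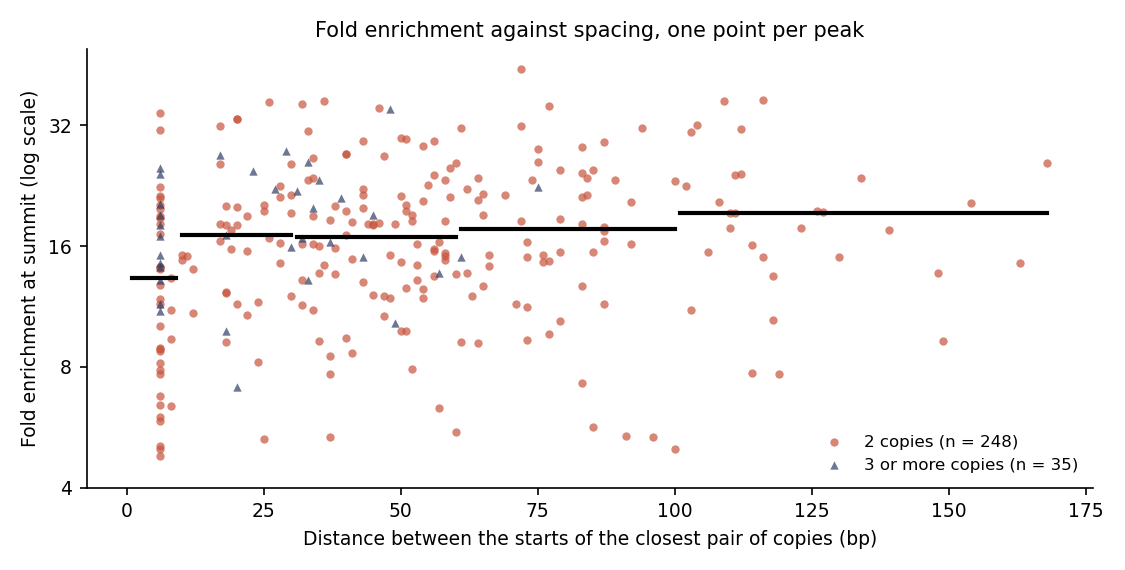
Fold enrichment of each of the 283 members (log axis) against the distance in bp between the starts of its closest pair of copies; circles hold 2 copies, triangles 3 or more, and black bars are medians over distance ranges. The bar for overlapping copies lies at 13.3 and the other bars between 16.9 and 19.3.

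Neighbouring copies more often pointed the same way. They had the same orientation in 214 of 326 pairs, or 65.6% (60.3% to 70.6%). In 55 pairs the intact arms faced each other and in 57 the altered arms did. Among the 274 separate pairs, 177 had the same orientation (64.6%), 43 had the intact arms facing and 54 the altered arms. Among the 52 overlapping pairs, 37 had the same orientation, 12 had the intact arms facing and 3 the altered arms. Pairs of a peak with 3 or more copies share copies, so pairs are not fully independent.

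Orientation in clusters without a summit differed with overlap and place. Over all their pairs 748 of 1211 had the same orientation (61.8%, 59.0% to 64.5%). Among separate pairs of genomic clusters without a summit, 437 of 555 had the same orientation (78.7%, 75.1% to 81.9%). Outside soft-masked repeats this was 253 of 284 (89.1%). For separate pairs the share in the members, 64.6%, was thus below both. For overlapping pairs it was above: 37 of 52 in the members (71.2%) and 311 of 656 in the clusters without a summit (47.4%). In promoters, overlapping pairs included, it was 175 of 267 in the members (65.5%) and 19 of 41 in the clusters without a summit (46.3%). These are descriptions with no test. In 129 of the 283 members (45.6%) at least 2 copies were identical in sequence when read in the same direction.

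Slightly more copies had the intact arm first on the coding strand than the altered arm. In promoters whose starts all lie on 1 strand, 228 of 408 copies (55.9%, 51% to 60.6%) had it first. In peaks with 1 imperfect copy this was 538 of 1008 (53.4%, 50.3% to 56.4%). The members' copies are not independent, since a peak gives several and neighbours often point the same way. Their interval may therefore be too narrow.

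The kinds of mismatch in the members were concentrated at the centre of the palindrome. Position 6 held the mismatch in 452 of 609 copies, or 74.2%, as T6G in 243, T6C in 161 and T6A in 48. C10T accounted for 63 copies, G9T for 32 and C8T for 20. Position 7 was altered in 7 copies. The share at position 6 was 68.8% in peaks with 1 imperfect copy and 24.7% among all 26165 imperfect copies of the genome. C8T, the commonest kind in the genome at 31.8%, made up 3.28% of the members' copies.

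The commonest combinations in members with 2 copies were T6G with T6G (52 of 248), T6C with T6G (43) and T6C with T6C (28). Their median fold enrichments were 18.3, 15.5 and 15.3. Single copies of T6G and T6C, in peaks with 1 imperfect copy, had medians of 11.5 and 10.8. For T6G, 58 members held this kind alone, and their median was 18.3. C10T with T6G (15 members) had a median of 19.5 and C10T with C10T (9 members) 16.8, where a single C10T copy had 11.5. G9T with G9T (5 members) had a median of 11.5, the same value as a single G9T copy.

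**Figure D4:**
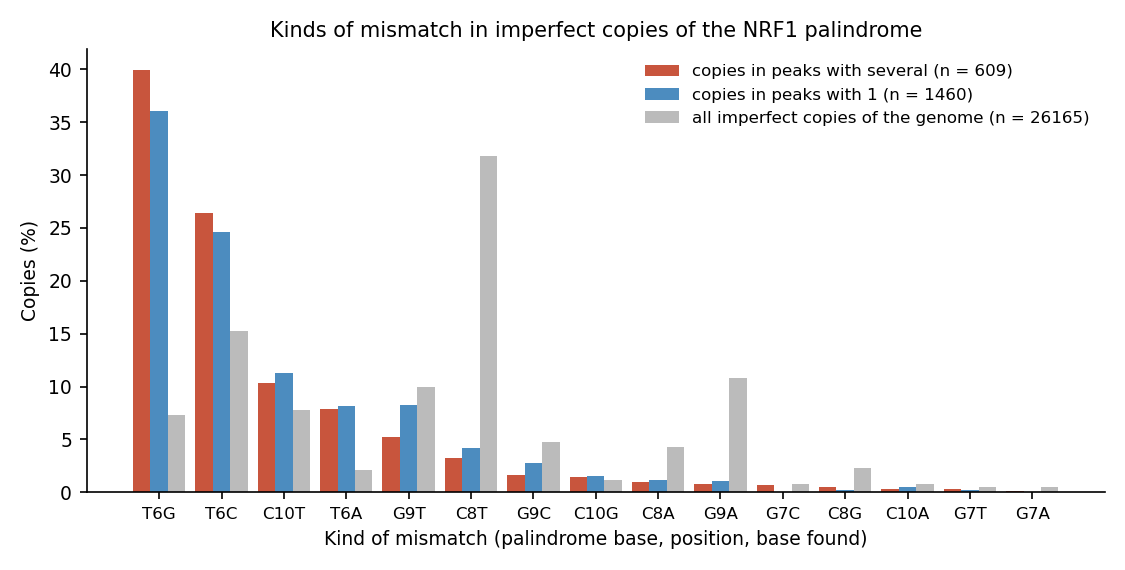
Share of imperfect copies by kind of mismatch in peaks with several copies (609 copies), in peaks with 1 copy (1460) and in the whole genome on chromosomes with peaks (26165). T6G makes up 39.9%, 36.1% and 7.33%, and C8T 3.28%, 4.18% and 31.8%.

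The bases next to the copies were similar in the members and in peaks with 1 copy. The base before the intact arm was T in 44.5% of members' copies and C in 32.2%, and A in 7.06%. After the altered arm it was A in 45.5%, G in 28.9% and T in 6.90%. In peaks with 1 imperfect copy the corresponding shares were 49.9%, 30.1%, 7.67%, 45.7%, 31.5% and 6.58%. Among imperfect copies of the genome without a summit, T preceded the intact arm in 59.3% and C in 19.6%, and A followed the altered arm in 34.8%, C in 31.4% and G in 20.6%. C followed the altered arm in 18.7% of members' copies.

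The position of the summit relative to the copies is partly set by the rule, which looks for copies within 100 bp to either side of it, so it is described with no test. The summit lay between the centres of the outermost copies in 186 of 283 members (65.7%, 60.0% to 71%). Among the 248 members whose first and last copies did not overlap it did so in 181 (73.0%). The median distance from the summit was 10.5 bp for the nearest copy and 45.5 bp for the second nearest (quartiles 24.5 and 67.0 bp). In peaks with 1 imperfect copy the copy was a median of 13.5 bp away. In 61 members with 2 separate copies, 1 of them altered at position 6 and the other elsewhere, the copy altered at position 6 was nearer the summit in 34 (55.7%, 43.3% to 67.5%).

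Clusters of imperfect copies held a summit more often than lone copies. This comparison started from the sequence: all imperfect copies on the 22 chromosomes with peaks were chained when their starts lay at most 100 bp apart, and chains near an exact copy were left out. A summit lay within 100 bp of a copy in 265 of 1230 clusters, or 21.5% (19.3% to 23.9%). For lone copies it was 1520 of 23088, or 6.58% (6.27% to 6.91%). In a logistic model the odds ratio was 3.90 (3.37 to 4.51, adjusted p = 2.46e-74, n = 24318 chains). It was 3.69 in promoters, 4.12 outside them and 2.60 with promoter location, GC content and CpG ratio as covariates. It was 2.28 with copies chained up to 50 bp and 4.97 with copies chained up to 200 bp. For clusters whose first and last copies did not overlap, against lone copies, it was 7.06. A cluster spans a wider window than a lone copy, and with the window of the first copy alone, chosen after seeing the data, the odds ratio was 3.64. That window does not remove the further copies, each of which is another place where a summit can lie. The comparison also rests on the copies and summits that the rule used. Whether copies act together was not tested.

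Clusters with separate copies held a summit more often than clusters of only 1 overlapping pair. Separate here means that the first and last copies of the cluster did not overlap each other. Neighbours in it could overlap, so runs of 3 or more overlapping copies counted as separate. A summit was found at 229 of 689 clusters with separate copies (33.2%, 29.8% to 36.8%). For 1 overlapping pair it was 36 of 541 (6.65%, 4.85% to 9.07%), and the odds ratio against lone copies was 1.01 (0.718 to 1.42). This value mixes repeats with other sequence, since 411 of these 541 clusters touched a soft-masked repeat. Outside repeats 29 of 130 overlapping clusters held a summit (22.3%, 16% to 30.2%), beside 14.3% of lone copies, and the odds ratio was 1.72 (1.14 to 2.61, adjusted p = 0.0156, n = 10468 chains). Touching repeats it was 7 of 411 (1.70%) beside 0.345%, an odds ratio of 5.00 (2.24 to 11.2). With repeat as a covariate the odds ratio was 2.04 (1.4 to 2.97), and with promoter location, GC content and CpG ratio besides it was 1.61 (0.942 to 2.75, adjusted p = 0.122, n = 23629 chains). In promoters the shares were 188 of 212 for separate copies (88.7%), 28 of 43 for overlapping copies (65.1%) and 1254 of 2089 for lone copies (60.0%). The odds ratio of separate against overlapping copies was 6.98 (4.81 to 10.1, adjusted p = 1.37e-23, n = 1230 clusters). It was 3.44 with promoter location, GC content and CpG ratio as covariates (1.86 to 6.39, adjusted p = 1.55e-04, n = 1230 clusters) and 4.20 in promoters only (1.97 to 8.95, adjusted p = 2.89e-04, n = 255 clusters). Outside repeats it was 3.50 (2.22 to 5.53, adjusted p = 1.76e-07, n = 535 clusters). These tests of overlapping copies were chosen after seeing the data.

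**Figure D5:**
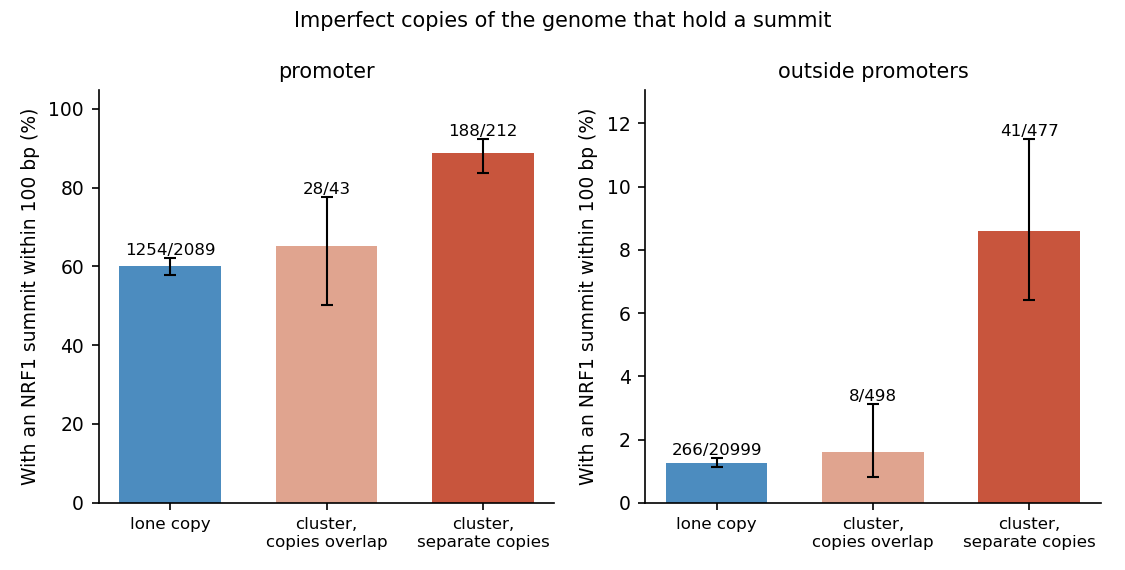
Share with an NRF1 summit within 100 bp among lone imperfect copies, clusters of 1 overlapping pair and other clusters, in promoters (left) and outside them (right). The other clusters are labelled as separate copies, as their first and last copies do not overlap, though neighbours can. Bars carry 95% Wilson intervals and counts, and the vertical axes differ. In promoters the shares are 60.0%, 65.1% and 88.7%, and outside promoters 1.27%, 1.61% and 8.60%.

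Repeats and CpG content moved with these shares. Of chains touching soft-masked repeats, 0.345% of lone copies and 4.75% of clusters held a summit, and outside repeats 14.3% and 43.4%. The authors kept uniquely mapped reads, and whether this affected the shares in repeats was not tested. With soft-masked copies left out the odds ratio of clusters against lone copies was 4.70. At a CpG ratio (observed over expected CpG) below 0.4, 1 of 165 clusters held a summit (0.606%, 0.107% to 3.35%), beside 0.421% of lone copies. From 0.4 to below 0.8 the shares were 9.11% of clusters and 3.88% of lone copies. At a ratio of 0.8 or more they were 38.4% (219 of 571) and 20.7%. Of the members, 42 of 283 touched a soft-masked repeat between their outermost copies, and their median fold enrichment was 14.7, compared with 17.5 in the others.

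The kind of mismatch moved with the shares as well. Among clusters of 2 separate copies, a summit was found at 106 of 174 when both mismatches were at position 6 (60.9%), at 57 of 128 when 1 was (44.5%) and at 30 of 226 when neither was (13.3%). In promoters these were 89 of 101 (88.1%), 47 of 52 (90.4%) and 21 of 26 (80.8%), with overlapping intervals. Lone copies in promoters held a summit in 68.2% of cases when altered at position 6 and in 46.4% when altered elsewhere.

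Blocks of 16 bases made of 2 copies that start 6 bp apart occurred 47 times in 43 members. The commonest are shown here, with all bases in capitals since all belong to a copy.

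T6G block: GCGCAGGCGCAGGCGC
T6C block: GCGCACGCGCACGCGC

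The T6G block occurred 14 times in the members and 39 times in the genome, so 35.9% of its occurrences lay within 100 bp of a summit (22.7% to 51.6%). The T6C block, a run of alternating purines and pyrimidines, occurred 8 times in the members and 182 times in the genome (4.40%, 2.24% to 8.43%). Of its genomic occurrences 99.5% were soft-masked and 11 lay in promoters, whereas 7.69% of the T6G blocks were soft-masked and 10 lay in promoters.

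The members were mainly promoter peaks, as were the peaks of the other classes. Promoters were counted from 1000 bp upstream to 100 bp downstream of RefSeq starts, and 234 of 283 members had their summit in one (82.7%, 77.8% to 86.6%). This share was 82.2% with 1 imperfect copy, 81.7% with an exact copy and 78.3% without a copy. The odds ratios of the members were 1.03 (0.740 to 1.45), 1.07 (0.712 to 1.62) and 1.32 (0.943 to 1.86), with adjusted p of 0.842, 0.806 and 0.141. With a promoter of 500 bp to either side of a start, the last odds ratio was 1.67 (1.12 to 2.49, adjusted p = 0.0156, n = 3226 peaks). Outside promoters, 25 members lay in introns, 10 were intergenic, 9 lay in non-coding exons or untranslated regions and 5 in coding exons.

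In promoters the members lay close to the start. The median summit was at -57.0 bp relative to the nearest start, with quartiles of -96.8 and -19.0 bp. This distance was not compared with the other classes, so it is not read as particular to the members. Starts on both strands shared the promoter in 40 of the 234 (17.1%, 12.8% to 22.4%), compared with 16% of promoter peaks with 1 imperfect copy. The arrangement is rare at starts without a summit: of 22265 windows reaching 100 bp to either side of protein-coding starts with no summit within 2000 bp, 11 met the same sequence rule, or 0.0494%. Of all 25999 windows at protein-coding starts 177 did, or 0.681%. The other classes with a copy were also rare in the 22265 windows without a summit. An exact copy occurred in 28 of them (0.126%) and 1 imperfect copy in 269 (1.21%).

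The promoter members with the highest fold enrichment belonged to genes of varied function. Ranbp3, which encodes a cofactor of nuclear export, had the highest at 44.3 and ranked 3 of all 3226 peaks. Its C10T and T6G copies lay 72 bp apart in the same direction, and its summit was at -16 bp relative to the start. Agtpbp1, encoding a carboxypeptidase that removes glutamates from tubulin, followed at 37.1 with 2 T6C copies 116 bp apart.

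Crtc1, a coactivator of CREB, had a fold enrichment of 36.8 with the 2 T6G copies shown above, 36 bp apart. Ndel1, a regulator of the dynein motor, had 36.7 and copies 109 bp apart whose intact arms faced each other. Rab3gap2, a subunit of a Rab GTPase-activating complex, had 36.5 and copies 26 bp apart. The first 5 thus covered distances from 26 to 116 bp and both same and opposite directions.

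Gtf3a, the general factor TFIIIA for transcription of ribosomal 5S RNA, had 36.2 with a C8T and a G9T copy, neither altered at the centre. Odc1, the rate-limiting enzyme of polyamine synthesis, had 35.8. Hp1bp3, a heterochromatin-associated protein, had 35.4 with 2 G9T copies.

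Hexim1, an inhibitor of the elongation factor P-TEFb, had 34.4, and it was the only one of these 10 whose copies overlapped. Zc3h14, encoding a poly(A)-binding protein, had 33.2 with 2 C10T copies 20 bp apart in opposite directions.

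Outside promoters the highest fold enrichment was 35.1, in an intergenic peak at -10944 bp relative to the start of Morn3 with 3 copies. The peaks nearest to Peg10, an imprinted gene derived from a retrotransposon, Slx4, a scaffold of DNA repair nucleases, and Ptma, encoding prothymosin alpha, followed at 29.8, 27.0 and 26.6. The peak near 4930526I15Rik described above had 25.9.

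The members with the lowest fold enrichment were the peak nearest Dyrk1b at 5.30, the promoter peaks of Pola1, the catalytic subunit of DNA polymerase alpha, at 5.09 and of Ldha, lactate dehydrogenase A, at 5.01, and intronic peaks of Nxn at 5.01 and Clip4 at 4.81. In 3 of these 5 (Pola1, Nxn and Clip4) the copies started 6 bp apart. Their −log10 q ranged from 3.14 to 7.45, compared with a median of 49.3 over the members.

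Member summits lay in the promoters of 256 protein-coding genes. This is 1.22% of the 21000 protein-coding genes considered and 9.12% of the 2808 with any NRF1 summit in the promoter. Of the 234 promoter members, 203 served 1 protein-coding gene, 26 served 2 or more and 5 served non-coding genes alone.

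Gene lists were set by gene symbol, so a gene of the same function under another symbol is not in its list, and a member is counted here only where its summit lies in the promoter. Of 97 respiratory chain genes, 39 had a promoter summit and 4 had a member. Ndufa6 (fold enrichment 20.6), Ndufa8 (18.1) and Ndufb4 (13.7) encode complex I subunits, and Sdha (15) encodes the flavoprotein of succinate dehydrogenase. The promoter that Sdha shares with Ccdc127 held 3 copies, 45 and 43 bp apart, with the summit at -35 bp relative to the start of Ccdc127, the nearest one. These 4 are 10.3% of the 39, close to the 9.12% over all genes with a promoter summit.

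Of 14 genes of mitochondrial DNA upkeep and transcription, 2 had a promoter summit and 1 had a member, Polrmt, the mitochondrial RNA polymerase, at 21.1 with overlapping T6C copies. Of 78 mitochondrial ribosomal genes, 26 had a promoter summit and 3 a member in the promoter: Mrpl17 (20.1), Mrpl45 (13.2) and Mrps26 (8.87). These 3 are 11.5% of the 26. None of the 10 listed mitochondrial import genes (symbols such as Tomm and Timm) with a promoter summit had a member in the promoter. Chchd4, which encodes an import factor of the intermembrane space and is outside that list, had one at 23.4, in a promoter shared with Tmem43.

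DNA replication genes had 3 members among the 10 with a promoter summit (30.0%), beside 9.12% over all genes with a promoter summit. They were Cdt1 (22.6), a licensing factor of replication origins, Pola2 (15.8) and Pola1 (5.09). Autophagy genes had 2 of 13, the protease gene Atg4d (19.8) and Wipi2 (17.6), whose product binds the forming autophagosome. Translation factors had 2 of 24, Eef1d (14.4) and Eif2s1 (8.25), and centrosome genes 2 of 19, Haus6 (17.2) and Cep170 (11.3).

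F-box genes had 1 of 10, Fbxw5 (22.2). The symbols starting with Rpl or Rps had 2 of 25, Rpsa (19.1), encoding a protein of the small ribosomal subunit, and Rps6kb1 (18.2), which encodes a kinase of ribosomal protein S6 and not a ribosomal protein. None of the listed proteasome genes (12 with a promoter summit), ubiquitin-activating and conjugating enzymes (symbols starting with Uba or Ube2, 13), Usp genes (16), splicing genes (symbols such as Sf3, Snrp, Srsf and Prpf, 19) or sarcomere genes (4) had a member in the promoter. Over all genes with a promoter summit the share with a member was 9.12%. A count of 0 in lists of this size is therefore not read as a lack. Outside promoters, 5 members had a listed gene as the nearest start: Mrpl54 (21.5), Usp10 (18.1), Eef2 (15.1), Srsf1 (8.66) and Ube2cbp (7.15). Outside these lists, members lay in the promoters of Cdc34 (31.0), a ubiquitin-conjugating enzyme, and of the splicing genes Bcas2 (24.1) and Lsm7 (18.4). These 3, Chchd4 and the 5 outside promoters were named after their values were seen. With 4 to 39 genes per list that have a promoter summit, except the 2 of mitochondrial DNA upkeep, these counts are descriptions, and no list was tested.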

How the data were processed

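ChIP-seq reads were mapped by the authors to mm10 with Bowtie, uniquely mapped reads were kept, and peaks were called with MACS2; the blacklist and the broad option named in the methods do not match the genome and the layout of the list. The deposited list gives for each peak a score, a fold enrichment (a ratio) and a q-value on the −log10 scale; fold enrichment, −log10 q, position and summit were used. Depth per library is unknown from the list. All peaks were scanned on GRCm38 (RefSeq), and starts came from 45756 known RefSeq transcripts. Classes were compared by ordinary least squares on log2 values with HC3 errors or by logistic regression across all peaks or chains, two-sided (statsmodels 0.14.6), adjusted over 12 tests by Benjamini-Hochberg. Intervals of shares are 95% Wilson intervals and cover counting error only. Scripts were tested on simulated data. Named peaks were the 10 promoter members and 5 other members with the highest fold, the 5 with the lowest and the 5 with the most copies, and up to 3 genes per gene list; Ndufb4 and the 2 commonest blocks were named after their values were seen. The members and lists were chosen with earlier results of these data known. Alternatives changed the window, fold and q limits, promoter, covariates, spacing and repeats.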

Additional observations from a re-analysis of the deposited data

How the results depend on the processing

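Of 127 alternative values of the 17 results, 111 had the direction and the call of the reported value, or stayed within the limits set for counts and shares. No paired analysis was possible because 1 peak list was deposited for the group, and for the same reason no replicate could be left out. Against peaks with an exact copy, the log2 difference in fold enrichment was -0.02 outside promoters, and against those of them with another copy it was -0.21, with -0.16 for log2 width; this split was chosen after seeing the data. The odds ratio of a promoter summit, which passed the threshold in no main comparison, was 0.907 against 1 imperfect copy and 0.983 against an exact copy with copies within 50 bp of the summit, 0.906 and 0.937 with GC content as a covariate, and 1.67 against no copy with 500 bp to either side of a start. The difference between 3 or more and 2 copies was 0.26 with copies within 150 bp. With copies within 50 bp, 145 peaks met the rule, 127 genes had such a summit in the promoter and 28.2% of pairs overlapped. The summit lay between the outermost copies in 73.0% of members whose first and last copies did not overlap. The odds ratio against lone copies was 1.01 for clusters of 1 overlapping pair and 1.24 for such clusters in promoters. It was 1.72 for such clusters outside repeats and 5.00 for those touching repeats. With repeat as a covariate it was 2.04, and with promoter location, GC content and CpG ratio besides it was 1.61. All of these settings were chosen after seeing the data. Other causes of these shifts were not tested. With 1 peak list and unknown depth, weak peaks may be missing, and no value has a replicate error.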

Other observations

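The 5 members with the lowest fold included Ldha, whose T6C copies lay 100 bp apart, so separate copies also occurred at weak peaks.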
